A study of Capsicum annuum with 78 samples.

Results

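This account is about 150 genes of pepper leaves (*Capsicum annuum* cv. Bukang) that were higher at 12 h after spraying with several phytohormones than in water-sprayed leaves of the same hour, and that showed little difference from water on average over the day. They were chosen from the measured values. Levels were expressed as log2(CPM + 1), where CPM is the count of a gene divided by the total of its library and multiplied by 1000000. A gene was taken when its mean CPM in mock leaves was at least 1, when its mean difference from mock over 1, 3, 6, 12 and 24 h stayed within 0.5 for each of the 4 hormones, when its difference at 1 h after ethephon was under 0.7, and when its difference at 12 h was at least 0.7 with at least 3 hormones. Of 35884 genes in the table, 17566 reached the mock minimum and 158 met the whole rule. The 150 with the largest mean of the 4 differences at 12 h were kept.

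Plants 6 weeks old were sprayed with salicylic acid (SA, 5 mM, as sodium salicylate), ethephon (ET, 5 mM, a compound that releases ethylene in the tissue), methyl jasmonate (JA, 100 μM), abscisic acid (ABA, 100 μM) or distilled water (mock). Leaves were sampled at 1, 3, 6, 12 and 24 h, and for mock also at 0 h, with 3 libraries for each of the 26 groups and the leaves of 4 plants in each library. All plants grew under 16 h of light and 8 h of darkness, and the clock time of spraying is not given in the sources used here. Treatments were applied and incubated apart from each other, so a treatment and its incubation cannot be told apart.

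SA, JA and ethylene are the main hormones of plant defence: SA is best known from defence against pathogens that feed on living tissue, and JA and ethylene from defence against chewing insects and pathogens that kill tissue. ABA closes stomata and governs the response to drought. Many leaf genes also follow the hour of the day, under the circadian clock and light, whether or not a hormone is applied, and hours 0 and 24 fall at the same point of the light cycle. A difference from mock at one hour can therefore come from a change in the treated leaf, from a change in the mock leaf, or from both, and the levels of both are given here.

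Only identifiers of the CM334 annotation are known for these genes. None of the identifiers was found in the RefSeq gene table at hand (assembly UCD10Xv1.1), so no gene is given a name, a role, a position or a sequence, and 4 genes are given by identifier. The 150 identifiers lie on 125 scaffolds. On scaffolds with more than 1 of them lie 45, and 3 pairs carry consecutive numbers on a scaffold. Whether neighbours are copies that share reads could not be examined.

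The libraries held between 4470356 and 8851726 counts, and those at 12 h between 5180392 and 8851726. A floor of 3 counts corresponds to between 0.339 and 0.671 CPM and covers counting error only. The 150 genes had a median level of 11.6 CPM over the 78 libraries, against 16.4 CPM for the 17566 genes, and ranged from 1.23 to 393 CPM. Summed over the 3 mock libraries at 12 h, a gene had between 5 and 5651 counts, 95 genes had at least 100 and 19 had under 30. Replicates at 12 h lay further apart for these genes than for the others after JA, where the median SD of log2(CPM + 1) was 0.29 against 0.21 for all genes, after ABA (0.21 against 0.15) and in mock (0.21 against 0.16). After SA (0.15 against 0.15) and ET (0.16 against 0.16) they did not.

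The 150 genes were mostly lower at 12 h than at 6 h in mock leaves and not so in treated leaves. The rule favours such a contrast, because it uses the 12 h levels of both. The median of their changes from 6 to 12 h, on the log2(CPM + 1) scale, was 0.25 after SA, 0.34 after ET, 0.22 after JA and 0.10 after ABA, against -0.56 in mock. The 4 comparisons at 12 h share the same 3 mock libraries, so they are not independent of each other. The median level of the 150 genes was taken in every library. At 12 h it was 4.16, 4.13 and 4.14 after SA, 4.02, 3.97 and 4.11 after ET, 3.88, 4.05 and 3.74 after JA and 3.57, 3.51 and 3.70 after ABA, against 2.93, 2.95 and 3.05 in mock, all on the log2(CPM + 1) scale. All 12 treated libraries lay above all 3 mock libraries at this hour, which the rule brings about. The order of the means was SA (4.14), ET (4.03), JA (3.89), ABA (3.6) and mock (2.98). ET and JA overlapped in this order, and SA stood above both, ABA below them. The second JA library stood above the other JA libraries, also in the summed level of the 150 genes, which was 5244 CPM in it and 4109 and 4036 CPM in the others.

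**Figure D1:**
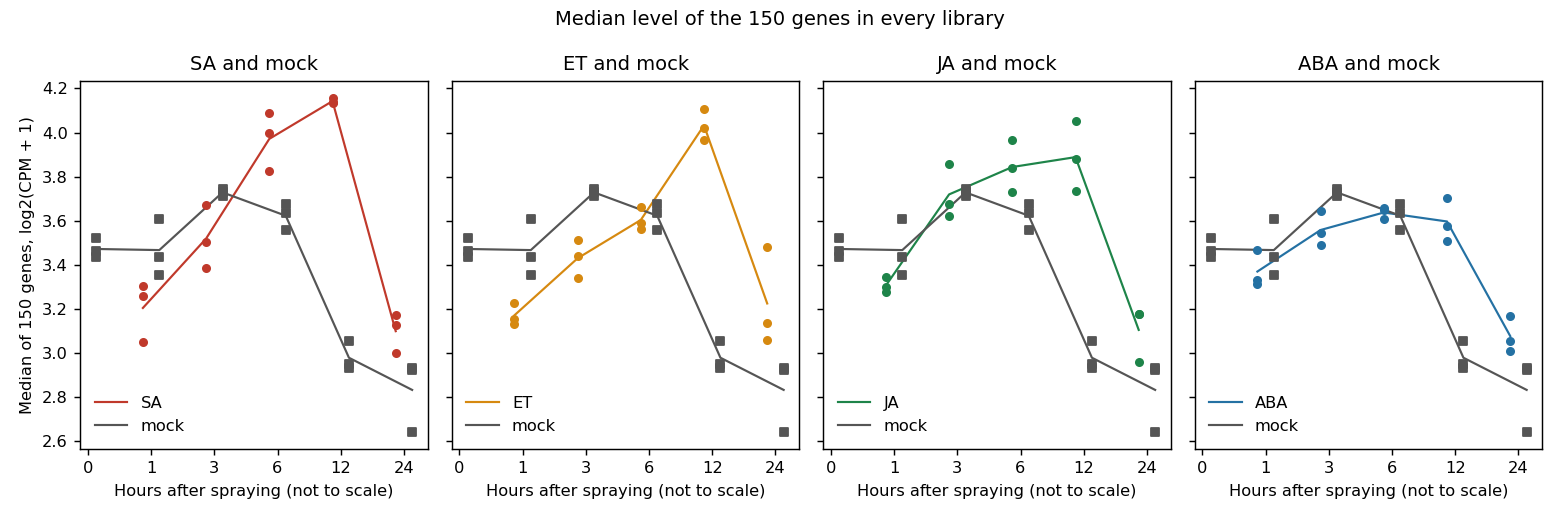
Median level of the 150 genes in each library, in log2(CPM + 1), against the hour after spraying (hours evenly spaced). Points are libraries (3 per group), lines join group means, coloured points and lines are the hormone and grey squares the mock leaves. Mock fell to 2.98 at 12 h and 2.83 at 24 h, while SA, ET and JA were at 3.89 or above at 12 h and between 3.10 and 3.22 at 24 h.

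The course over the day shows where the difference lay. The mean of the mock libraries, for hours 0, 1, 3, 6, 12 and 24, was 3.47, 3.47, 3.73, 3.62, 2.98 and 2.83. After SA it was 3.20, 3.52, 3.97, 4.14 and 3.10 at 1, 3, 6, 12 and 24 h, and after ET 3.17, 3.43, 3.6, 4.03 and 3.22. After JA it was 3.31, 3.72, 3.84, 3.89 and 3.10, and after ABA 3.37, 3.56, 3.64, 3.6 and 3.08. By 24 h the means of the 4 hormones lay between 3.08 and 3.22, and the gap to mock was smaller than at 12 h. At 1 h the treated means were below mock, and at 3 h those after SA, ET and ABA were. After JA the mean at 3 h was level with mock, with libraries from 3.62 to 3.86. Over all 17566 genes the mean of this median in mock was 4.06 at 6 h, 4.15 at 12 h and 3.75 at 24 h, so the loss at 12 h was not the course of most genes.

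Counted by gene, mock leaves were lower at 12 h than at 6 h by at least 0.5 for 85 of the 150 genes and higher by as much for 3. Among the 17566 genes, 12.2% were lower and 18.3% higher by that amount. In treated leaves the same step downward was taken by 14 genes after SA, 8 after ET, 23 after JA and 20 after ABA, where 8.5%, 7.47%, 7.49% and 8.84% of all genes took it. A step upward was taken by 37 genes after SA, 46 after ET, 38 after JA and 33 after ABA, where 21.9%, 20.2%, 24.4% and 26% of all genes took it. Both counts after SA and the upward count after JA were near the shares of all genes. The downward counts after JA and ABA and the upward count after ET lay above these shares. The downward count after ET and the upward count after ABA lay somewhat below them. From 12 to 24 h a loss of at least 0.5 was seen in 93 genes after SA, 89 after ET, 91 after JA and 84 after ABA, against 62 in mock, where it was seen in 37.5%, 39.1%, 48.9% and 49.2% of all genes after the hormones and in 41.6% in mock. The 62 genes in mock are a share near that of all genes. Over all genes the median change from 12 to 24 h was between -0.49 and -0.33 after the hormones and -0.39 in mock, and with TMM scaling (trimmed mean of M-values, which assumes that most genes do not change) it was between -0.03 and 0.01 in all of them. With that scaling the 150 genes changed by -0.54 after SA, -0.35 after ET, -0.51 after JA and -0.29 after ABA, and by 0.05 in mock, so the small further fall in mock from 12 to 24 h (-0.20 by column totals) was not kept. These steps contain the 12 h libraries that chose the genes and are given as a description.

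Few of the 150 genes were highest at 12 h in mock leaves, which the rule favours. From 1 to 24 h, 5 of the 150 genes had their highest mean at 12 h in mock leaves, where 43.2% of all genes did. In mock, 57 of the 150 were highest at 6 h (21.4% of all genes) and 42 at 3 h (12.3% of all genes), and 77 were lowest at 24 h (40.3% of all genes) and 49 at 12 h (11.8% of all genes). In treated leaves 71 genes were highest at 12 h after SA, 91 after ET, 49 after JA and 61 after ABA, where 49.3%, 49.97%, 49.9% and 52.2% of all genes were. The count after SA was near the share of all genes. After ET it lay above that share, and after JA and ABA below it. The large share of all genes with a maximum at 12 h depends on how libraries were scaled: with TMM scaling it was 24.9% in mock and between 19.1% and 26.8% after the hormones. With that scaling the 150 genes were highest at 12 h in 4 cases in mock and in 47, 55, 32 and 42 cases after SA, ET, JA and ABA. The counts after SA and ET then lay above the shares of all genes, and those after JA and ABA near them.

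**Figure D2:**
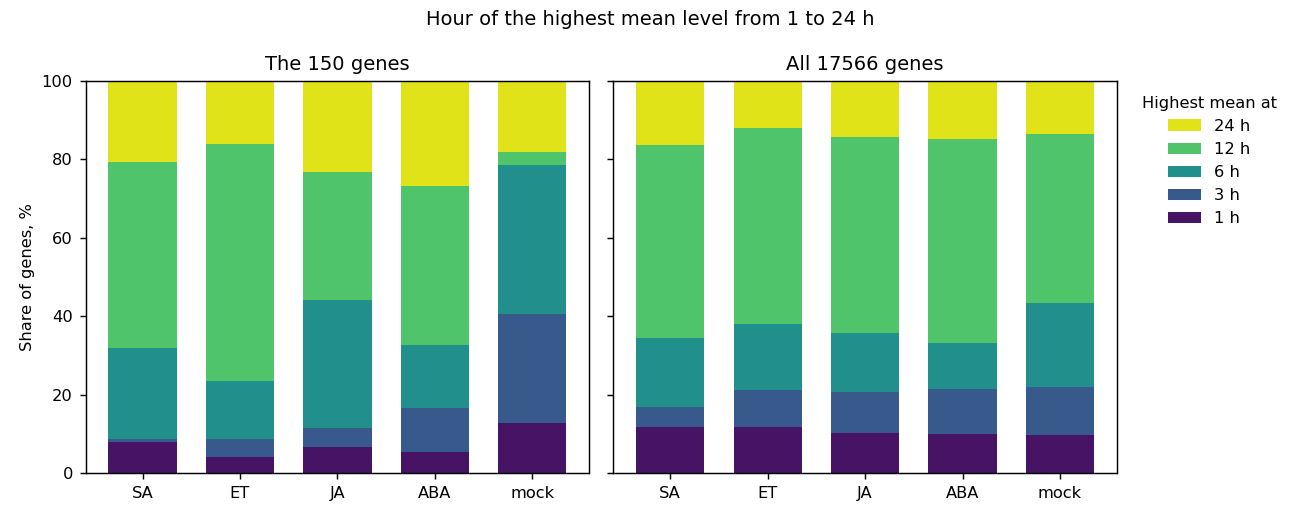
Share of genes, in percent, by the hour of their highest mean log2(CPM + 1) from 1 to 24 h, for the 150 genes (left) and all 17566 genes (right). Each bar is 1 treatment and its colours are the hours. In mock leaves 5 of the 150 genes were highest at 12 h, against 43.2% of all genes.

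The differences from mock at 12 h are the values that chose the genes. Over the 150 genes the median difference was 1.04 for SA, 0.93 for ET, 0.88 for JA and 0.68 for ABA, against 0.13, 0.09, 0.14 and 0.08 over the 17566 genes. The threshold of 0.7 was reached by 134 genes for SA, 134 for ET, 135 for JA and 74 for ABA. Among all genes 16.7%, 19.4%, 10.2% and 8.37% reached it, so ABA had the lowest share there too. All 4 hormones reached it for 27 genes. The other 123 missed it with 1 hormone, and for 76 of them this was ABA. SA was missing for 16, ET for 16 and JA for 15. The hormone under the threshold was mostly still above mock. The 76 genes that missed with ABA had a median difference of 0.32, with 63 of them above 0. The 15 that missed with JA had a median of 0.52, all above 0. By column totals most genes were above mock at 12 h, 10470 of the 17566 with ABA and 11391 with JA. The genes were also ranked by the mean of all 4 differences, so these counts describe the choice. One gene was lower than mock by at least 0.7 at 12 h, with SA (-0.89). The largest of the 4 differences was that of SA for 75 genes, of ET for 42, of JA for 22 and of ABA for 11.

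At the edge of the choice, the gene ranked 150 had a mean of the 4 differences of 0.618, and the next one, left out, 0.610. The third largest difference at 12 h was 0.701 in the lowest gene taken, and 0.6998 in the highest gene that failed on this alone. The largest mean difference over the 5 hours was 0.496 among the genes taken and 0.501 in the nearest gene that failed on it. With the mock minimum kept, but without the limits on the mean over the day and on ET at 1 h, 1161 genes had at least 3 hormones at the threshold at 12 h. Of these, 683 failed only on that mean.

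In a fit of all genes with edgeR's quasi-likelihood test (10 groups of a hormone and mock, Benjamini-Hochberg adjustment over all genes tested, threshold 0.05), 128 of the 150 genes were called higher than mock at 12 h with SA, where 23.3% of all genes were. With ET it was 132 genes, where 28.4% of all genes were. With JA 112 genes were called higher (12.1% of all genes). With ABA 72 genes were called higher (13.3% of all genes). Without the replicates numbered 1, 2 or 3, 85, 69 and 88 genes were called with JA in either direction. With SA, ET and ABA fewer genes were called too when any replicate number was left out. Called lower were 1 gene for SA (23.9% of all genes), 0 for ET (29.7%), 0 for JA (11.3%) and 3 for ABA (13.8%). The rule used this contrast, so these counts describe the choice. The 3 treated libraries lay above the 3 mock libraries for 140 genes for SA, 131 for ET, 134 for JA and 96 for ABA, where this held for 37.1%, 35.9%, 28.4% and 27.6% of the 17566 genes. All 12 treated libraries lay above all 3 mock libraries for 68 of the 150 genes and for 7.7% of all.

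The rise over mock was largest at 12 h, which the rule favours, but was not confined to it gene by gene. With SA the largest difference of the 5 hours was at 12 h for 136 of the 150 genes, with ET for 120, with JA for 131 and with ABA for 109. At 24 h it was largest for 9, 23, 7 and 25 genes. The share of all genes was not taken for these counts, so they only describe the choice. A difference of at least 0.7 at another hour with any of the hormones was found in 86 genes (57.3%), where 39.3% of all genes had one, and was not found in the other 64. At 24 h 46 genes reached 0.7 with ET (14.7% of all genes did), 25 with SA (6.89%), 9 with JA (3.92%) and 7 with ABA (2.66%). At 6 h 23 genes reached it with SA (10.9% of all genes did) and 10 with JA (2.8%). With at least 3 hormones at the same other hour 4 genes (2.67%) reached it, where 5.5% of all genes did. The rule's limits on the mean over the hours and on ET at 1 h work against such genes, so this lower share is no finding.

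Early after spraying most of the genes lay below mock, though with JA at 3 h the median was close to it. At 1 h the median difference was -0.26 for SA, -0.27 for ET, -0.21 for JA and -0.21 for ABA, where it was between -0.06 and 0.04 over all genes. At 3 h it was -0.29 for SA, -0.21 for ET, -0.05 for JA and -0.20 for ABA. At 6 h SA (0.29) and JA (0.20) were above mock and ET (-0.02) and ABA (-0.08) were not. At 24 h the medians were 0.34 for SA, 0.37 for ET, 0.16 for JA and 0.21 for ABA. The rule limits the mean over these hours, so the values at the other hours are not independent of the choice.

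**Figure D3:**
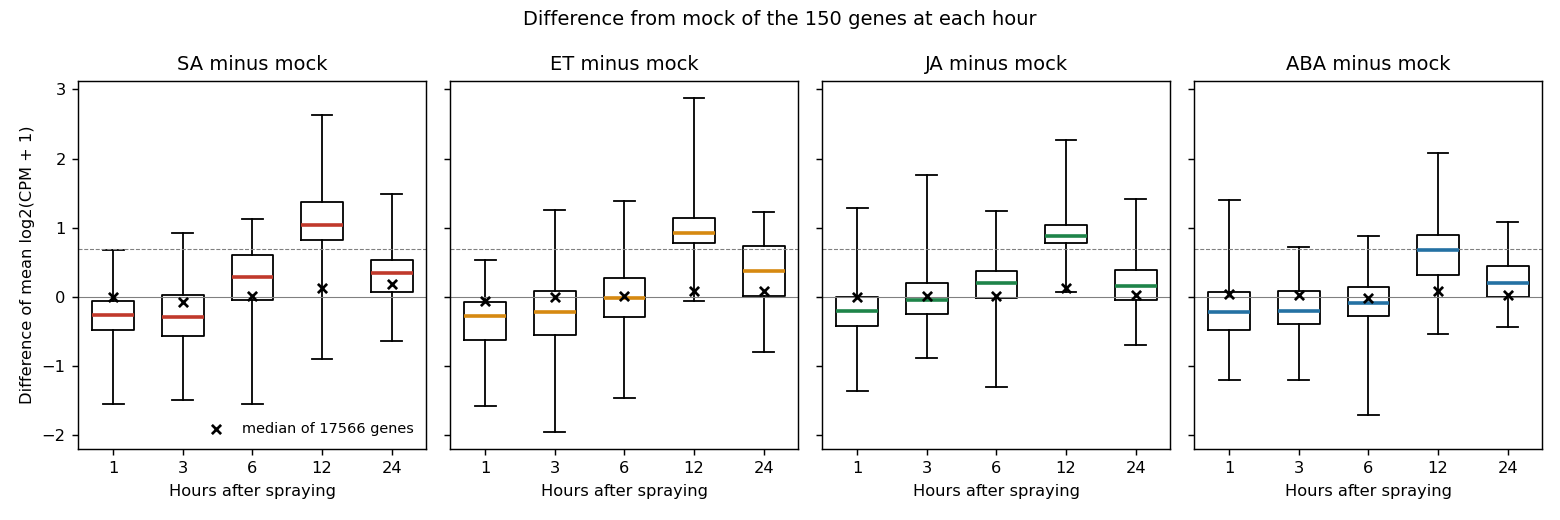
Difference of mean log2(CPM + 1) between hormone and mock at each hour for the 150 genes. Boxes show quartiles, the coloured line the median and whiskers the lowest and highest gene. Crosses mark the median of the 17566 genes, and the dashed line the threshold of 0.7. The medians at 12 h were 1.04 (SA), 0.93 (ET), 0.88 (JA) and 0.68 (ABA).

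The genes were sorted into kinds by their 12 h level against the neighbouring hours. For each gene, the level at 12 h was set against the mean of its levels at 6 and 24 h, once in the treated leaves (mean of the 4 hormones) and once in mock. In treated leaves the 12 h level was at least 0.5 above its neighbours for 73 genes, and in mock it was at least 0.5 below them for 47. Only 1 gene did both, 72 were high in treated leaves only, 46 low in mock only and 31 neither. These names use the limits alone. A gene named low in mock only could be low in treated leaves too (down to -4.25 against its neighbours). A gene named high in treated leaves only could be high in mock too (up to 1.05). Among all 17566 genes 26.6% were high in treated leaves by this measure and 9.59% low in mock. With TMM scaling the numbers among the 150 were 46 high in treated leaves only and 58 low in mock only, so which kind was larger depends on the scaling.

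The 72 genes high in treated leaves only had a median level in mock, for hours 0, 6, 12 and 24, of 3.37, 3.83, 3.31 and 2.22 on the log2(CPM + 1) scale. In treated leaves their median level was 4.05 at 6 h, 4.24 at 12 h and 2.68 at 24 h. Both courses were lowest at 24 h, which lowers the mean of the neighbours. From 6 to 12 h the mock median fell by more than the treated median rose. Part of the gap at 12 h thus lay in mock in this kind too. Their median difference from mock at 12 h was 1.35 for SA, 0.90 for ET, 0.87 for JA and 0.77 for ABA.

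The 46 genes low in mock only had another course. In mock their median level, for hours 0, 1, 6, 12 and 24, was 4.0, 4.5, 3.81, 2.90 and 4.44. In treated leaves, for hours 6, 12 and 24, it was 3.82, 3.8 and 4.51. The lowest mock level was at 12 h, and the treated level at that hour was close to that of 6 h. Their median difference at 12 h was 1.06 with ET, 1.007 with JA, 0.94 with SA and 0.43 with ABA, so ABA leaves were closest to mock here. The gene with the deepest trough, chosen after its values were seen, had 12.2 ± 0.858 CPM at 12 h after SA, 16.4 ± 2.95 after ET, 7.64 ± 3.16 after JA and 12.5 ± 0.647 after ABA, against 6.41 ± 1.03 in mock (SD, n = 3 each). The same gene had between 398 and 565 CPM on average at 24 h after the hormones and 510 ± 73.1 CPM in mock. The JA libraries overlapped mock at 12 h, and under every treatment the mean at 12 h was far below that at 24 h.

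**Figure D4:**
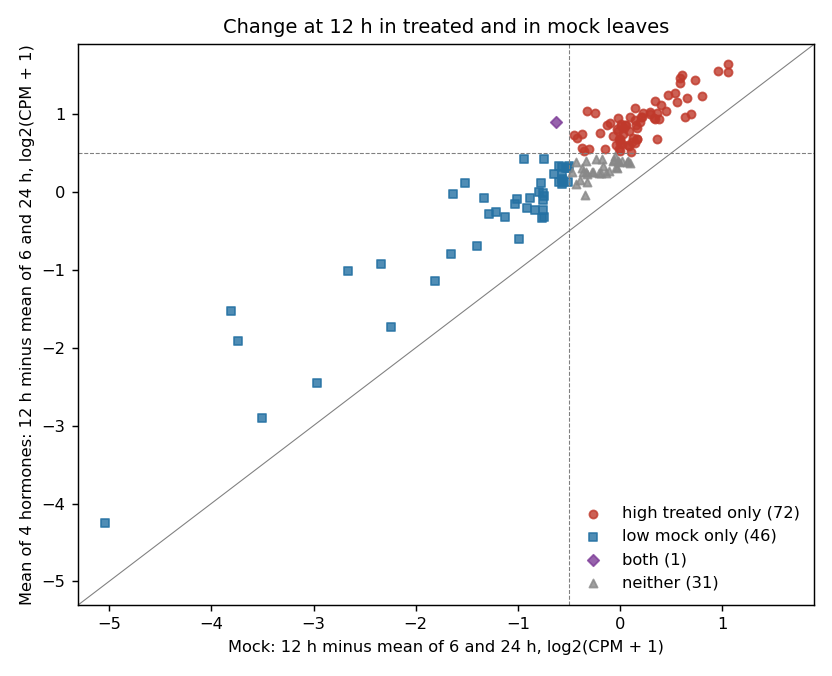
Level at 12 h minus the mean level at 6 and 24 h for each of the 150 genes, in treated leaves (vertical axis, mean of the 4 hormones) and in mock (horizontal axis), in log2(CPM + 1). Dashed lines are the limits of 0.5 and the solid line marks equal change. The rule favours genes above the line, so their place there is no finding. By these limits alone 72 genes were high in treated leaves only, 46 low in mock only, 1 both and 31 neither.

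The mock leaves of 0 h enter no difference of the rule, and those of 6 and 24 h enter only the mean over the day. All mock libraries also enter the minimum on the mean mock CPM. The comparisons of 24 h and of 6 h against 0 h in mock are therefore not the contrast of the rule, but are not wholly independent of it. At 24 h against 0 h, 62 of the 150 genes were lower in mock leaves (edgeR, adjusted p under 0.05, 18 mock libraries in one fit), where 17.5% of all 17788 genes tested were lower and 34.4% were called in either direction. Higher were 26 genes, a share near the 16.9% of all genes, and 62 did not pass. The median log2 fold change was -0.42 over the 150 genes and 0.02 over all. The kinds differed in direction. Of the 72 genes high in treated leaves only, 48 were lower and 4 higher (median -1.25), and of the 46 genes low in mock only, 5 were lower and 18 higher (median 0.33). The kinds were defined with the mock level at 24 h, so this split is a description.

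At 6 h against 0 h in mock leaves, 35 of the 150 genes were higher, where 17.5% of all genes were, and 30 lower, where 17.8% were. Without the replicates numbered 1, 2 or 3 the higher genes were 24, 22 and 30. The median log2 fold change was 0.12, against 0.02 over all genes. Of the genes high in treated leaves only, 26 were higher and 2 lower, and of those low in mock only, 7 were higher and 21 lower. The mock level at 6 h also helped to define the kinds, so this split is a description too.

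To see whether the pattern held in libraries that had not chosen the genes, the rule was applied to 2 of the 3 replicate numbers and the 12 h differences were read in the other one. With replicate 1 left out, 74 of 150 chosen genes (49.3%) reached 0.7 with at least 3 hormones in replicate 1, against 8.7% of the 17566 genes. With replicate 2 left out it was 65 of the chosen genes (43.6%, against 8.74%), and with replicate 3 left out 47 of 150 (31.3%, against 6.58%). The median of the mean difference in the libraries left out was 0.83, 0.75 and 0.60, against 0.12, 0.14 and 0.07 over all genes. It was above 0 for 147, 142 and 142 of the chosen genes. In these libraries ABA had the lowest median each time (0.60, 0.34 and 0.35), and SA had 1.06, 0.89 and 0.83. The rule on 2 replicates was met by between 149 and 195 genes, and the lists shared 95, 86 and 88 genes with the 150. The single mock library of 12 h is common to the 4 differences of a replicate, so they are not independent of each other.

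The rule picked more genes at 12 h than at any other hour. With another hour in its place it was met by 35, 17, 19 and 17 genes for hours 1, 3, 6 and 24, against 158 for hour 12. With TMM scaling these numbers were 44, 23, 16 and 15, against 86 for hour 12, so 12 h stood out less. With falls instead of rises it was met by 80 genes at 12 h and by 12 to 41 at the other hours. The version for 1 h leaves out the limit on ET at that hour. Scaling decided the balance between rises and falls: with TMM scaling 86 genes met the rule for a rise at 12 h and 114 that for a fall. TMM factors averaged 1.28 in SA, 1.22 in ET, 1.26 in JA and 1.24 in ABA libraries at 12 h, against 1.146 in mock. Scaled in this way the median difference of all genes was between -0.02 and 0.01, and that of the 150 genes was 0.87 for SA, 0.83 for ET, 0.75 for JA and 0.57 for ABA. At least 131 of the 150 stayed above mock with each hormone, and between 49 and 108 reached 0.7. The same libraries chose these genes, so scaling them in another way cannot test the choice. The shares of all genes were not taken for these counts.

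The fall in mock between 6 and 12 h was seen with column totals, TMM and RLE scaling. The mock libraries of 12 h helped to choose the 150 genes, and the rule favours genes with a low level in them. Scaling the same libraries in another way cannot remove this, so these values only describe how the fall depends on scaling. With TMM the median change of the 150 genes from 6 to 12 h was -0.64 in mock, against -0.02 over all genes, and 100 genes lost at least 0.5. In treated leaves it was 0.05 after SA, 0.15 after ET, -0.01 after JA and -0.09 after ABA. By column totals all genes had a median change of 0.08 in mock and between 0.18 and 0.22 after the hormones. The sign of the change after JA and ABA thus differed with the scaling, while the change in mock was negative under each, with a median of -0.63 under RLE. In these whole-leaf libraries, fewer cells of a type and less RNA per cell cannot be told apart.

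CA.PGAv.1.6.scaffold410.43, ranked 2 by its mean difference, belonged to the genes low in mock only. At 12 h it had 9.74, 8.20 and 4.25 CPM after SA, 18.6, 12.8 and 15.8 CPM after ET, 10.1, 8.29 and 9.16 CPM after JA and 3.89, 5.54 and 6.6 CPM after ABA, against 2.06, 1.21 and 2.87 CPM in mock. Every treated library was above every mock library, which was a condition for naming the gene, and ET was highest. The log2 fold change was 1.65 ± 0.29 (SE) for SA, 2.78 ± 0.24 for ET, 1.997 ± 0.24 for JA and 1.24 ± 0.25 for ABA, and is given without a test because these values chose the gene. In mock its mean, for hours 0, 1, 3, 6, 12 and 24, was 57.6, 54.9, 39.6, 16.9, 2.05 and 87.1 CPM. The mock mean was lower at each hour up to 12 h and high again at 24 h. After ET its mean was 11.5 CPM at 6 h and 15.7 CPM at 12 h, so it was not lower at the later hour, while after SA (12.3 and 7.40 CPM), JA (15.5 and 9.19 CPM) and ABA (17.0 and 5.34 CPM) it was. At 24 h the gene had 58.1 ± 5.63 CPM after SA, 102 ± 10.4 after ET, 76.2 ± 9.88 after JA and 133 ± 12.7 after ABA, against 87.1 ± 5.97 in mock (SD, n = 3 each). At 24 h against 0 h in mock it was higher by 0.66 ± 0.12 on the log2 scale (SE, edgeR, adjusted p = 0.000137, between 1.91e-07 and 0.0279 over the alternatives).

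CA.PGAv.1.6.scaffold745.17, ranked 6, belonged to the genes high in treated leaves only. It had 11.3, 10.8 and 9.84 CPM at 12 h after SA, 8.04, 7.36 and 9.65 CPM after ET, 4.63, 7.74 and 3.997 CPM after JA and 8.14, 5.76 and 8.68 CPM after ABA, against 2.45, 1.96 and 2.32 CPM in mock. Treated and mock libraries did not overlap, which was a condition for naming the gene, and the JA libraries were the closest to mock. In mock its mean, for hours 0, 3, 6, 12 and 24, was 2.96, 6.48, 7.39, 2.24 and 0.985 CPM. At 24 h it had 1.22 ± 0.555 CPM after SA, 1.67 ± 0.494 after ET, 0.424 ± 0.449 after JA and 1.83 ± 0.577 after ABA, against 0.985 ± 0.052 in mock (SD, n = 3 each), on 0 to 18 counts a library. At 24 h against 0 h in mock it fell by 1.53 on the log2 scale (SE 0.37, edgeR, adjusted p = 0.00195, between 0.00172 and 0.055 over the alternatives, so the call was lost under some), and the summed counts were 22 at 24 h and 49 at 0 h.

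Among the genes that were lower in mock at 24 h than at 0 h, CA.PGAv.1.6.scaffold81.10 and CA.PGAv.1.6.scaffold1129.14 had the largest fitted falls, and both were weakly counted. CA.PGAv.1.6.scaffold81.10 had 0, 1 and 1 counts at 24 h and 7, 10 and 4 counts at 0 h in mock. The ratio of its levels was 0.0691, with an exact 95% counting interval of 0.00786 to 0.283 for counting error only. The gene was chosen for this fall and for passing edgeR's test, so no test of it is given. At 12 h it had 2.40, 3.19 and 2.70 CPM after SA, 1.91, 2.21 and 2.34 CPM after ET, 1.54, 2.76 and 3.16 CPM after JA and 1.42, 1.92 and 2.20 CPM after ABA, against 0.774, 0.906 and 0.273 CPM in mock, where it had 6, 6 and 2 counts. All treated libraries were above mock.

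CA.PGAv.1.6.scaffold1129.14 had 2 counts in each mock library at 24 h and 11, 10 and 9 counts at 0 h. The ratio was 0.145, with an exact 95% counting interval of 0.0494 to 0.354 for counting error only. It was chosen in the same way, and under some alternatives it did not pass edgeR's test (adjusted p up to 0.07). At 12 h it had 4.63, 3.79 and 4.44 CPM after SA, 4.85, 3.98 and 4.09 CPM after ET, 3.26, 3.32 and 2.16 CPM after JA and 2.12, 1.81 and 2.81 CPM after ABA, against 0, 2.57 and 0.682 CPM in mock. The second mock library overlapped the JA and ABA libraries. Without the replicates numbered 2 its mean difference at 12 h was 1.77, and without those numbered 1 it was 0.78, against 1.25 with all.

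**Figure D5:**
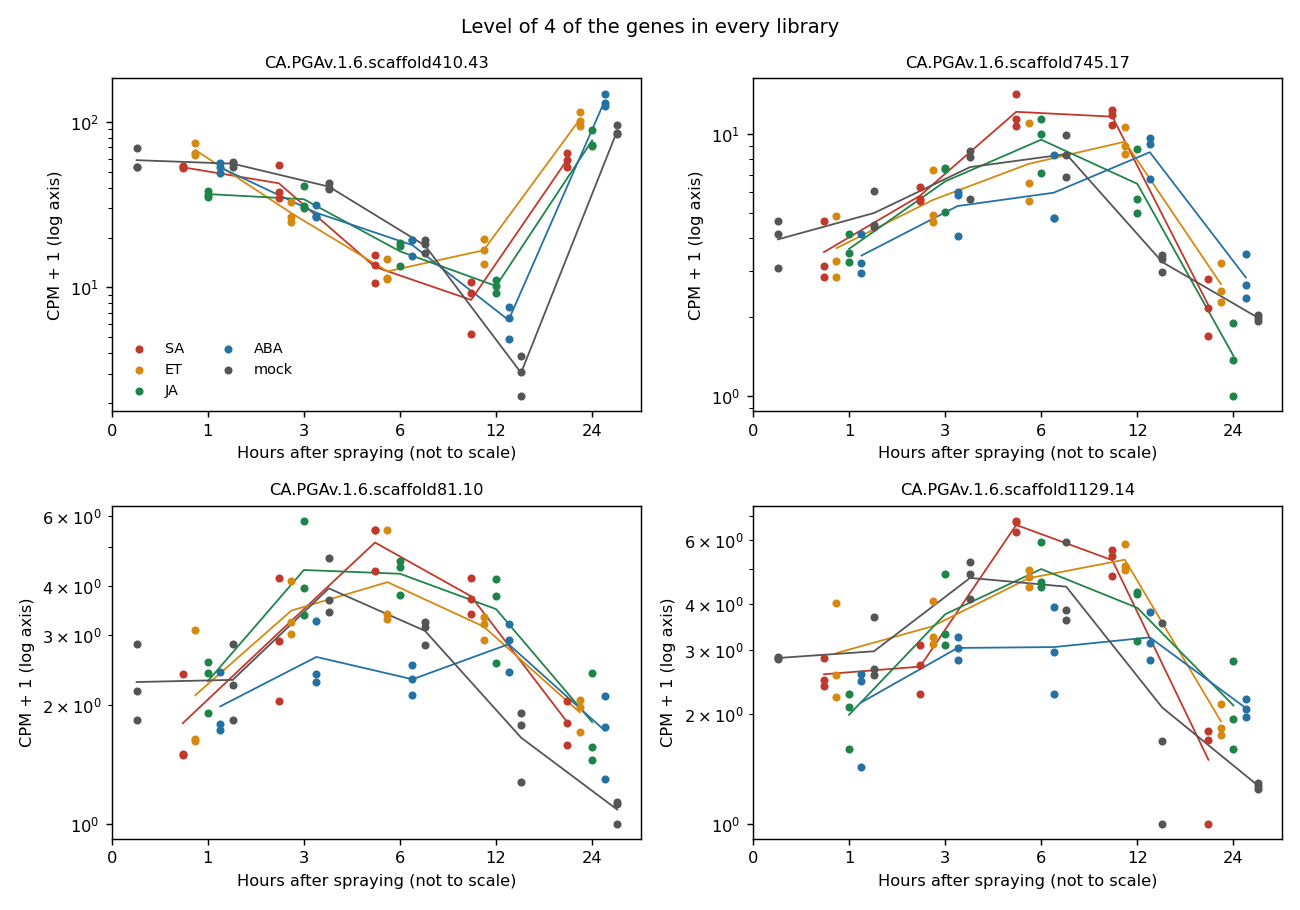
Level of 4 of the 150 genes in every library, as CPM + 1 on a log axis, against the hour after spraying (hours evenly spaced). Points are libraries (3 per group) and lines join group means. In the gene of the first panel mock fell to 2.05 CPM at 12 h and was at 87.1 CPM at 24 h, and in the other 3 panels mock was lowest at 24 h.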

How the data were processed

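The 78 pepper leaf libraries were sequenced as RNA-seq. For adapter removal the authors used cutadapt 1.15 and for quality trimming Trimmomatic 0.38. HISAT2 mapped the reads to the genome of cultivar CM334 and HTSeq 0.11.2 counted them (versions as in the submitters' processing notes). The deposited values are these counts, without normalization and with no replicates pooled. The strand setting of the counting, and how multi-mapped reads were handled, are not given in the sources used here. Libraries were strand-specific. Overlapping or antisense genes and near-identical copies are therefore uncertain. Bukang reads were mapped to the genome of another cultivar. CPM was computed from the column totals. All columns matched a sample title.

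Tests were run in edgeR 4.0.16 under R 4.3.3, with its filterByExpr, TMM and glmQLFTest functions. The SE of a log2 fold change is its size over the square root of F. Each hormone was fitted with mock in 10 groups (1 to 24 h), and mock alone in 6 groups. The code was tested on simulated data. Levels and counts were computed with pandas 2.3.3 and numpy 2.4.6 in Python 3.11.15, intervals with scipy 1.17.1. Alternatives were RLE scaling, DESeq2 1.42.0, no filter, only the 6 libraries compared, the replicate number as a block, each replicate number left out, a pseudocount of 0.1, other thresholds and TMM-scaled CPM. The labels number replicates without saying that a number links plants, and p-values measure the spread between these libraries.

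The genes and lists were chosen with earlier results of these data known. Named by rule were the 2 genes with the largest mean difference at 12 h whose 12 treated libraries all lay above mock, and the 2 with the largest fall in mock from 0 to 24 h that passed edgeR's test. The gene with the deepest trough was chosen after its values were seen.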

Additional observations from a re-analysis of the deposited data

Results flagged for a closer look

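Some hormones lay on opposite sides of mock at an hour other than 12 h, with all 3 libraries of one hormone above and all 3 of the other below the mock libraries. The difference between the hormones was not tested in these cases. In CA.PGAv.1.6.scaffold410.43 the difference from mock on the log2(CPM + 1) scale was 0.27 with ET and -0.61 with JA at 1 h, and 0.60 with ABA and -0.58 with SA at 24 h. In CA.PGAv.1.6.scaffold745.17 it was 0.41 with ET, 0.49 with ABA and -0.53 with JA at 24 h, where the JA libraries had 4, 0 and 2 counts. In CA.PGAv.1.6.scaffold81.10 it was 0.74 for SA, 0.37 for ET, 0.48 for JA and -0.41 for ABA at 6 h, on 8 to 34 counts a library.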

How the results depend on the processing

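Of 163 alternative values over 25 results, 43 moved by more than 1.5 times (counts) or by more than 1 SD between replicates (medians), and 0 changed sign. Counts have no sign, and the differences at 12 h were chosen to be high, so this says little. The change from 6 to 12 h was not among these results. Its median after JA and after ABA did change sign under TMM and RLE. The rule was met by 86 genes with TMM and 83 with RLE scaling (67 and 63 of the 150), by 19 with a threshold of 1.0 and by 27 with all 4 hormones, against 158. The median difference from mock at 12 h was 0.87 with SA, 0.83 with ET and 0.57 with ABA under TMM, 0.86, 0.79 and 0.56 under RLE, and 1.21 with SA and 1.09 with ET at a pseudocount of 0.1. With replicate numbers left out it ranged from 0.997 to 1.12 with SA. The median of treated 12 h minus its neighbours was 0.58 for SA, 0.53 for ET, 0.52 for JA and 0.43 for ABA. Under TMM it was 0.32, 0.27, 0.17 and 0.14, and under RLE 0.31, 0.26, 0.17 and 0.14. At a pseudocount of 0.1 it was 0.71 with SA, 0.62 with ET and 0.57 with ABA. With replicates left out it ranged from 0.54 to 0.64 with SA and from 0.34 to 0.58 with JA. The same median in mock was -0.15, and was -0.31 under TMM, -0.30 under RLE and -0.062 with 0 and 24 h as neighbours. Genes high in treated leaves numbered 47 under TMM and 47 under RLE, against 73. With replicates left out, calls at 12 h with JA ranged from 69 to 88, and genes higher in mock at 6 h against 0 h from 22 to 30. Causes other than the smaller number of libraries in those fits were not tested.

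Same-numbered libraries did not deviate together in every pair (correlations from -0.134 to 0.131), so no pairing by number was taken. Called in either direction at 12 h were 128 genes for SA, 132 for ET, 112 for JA and 79 for ABA under the replicate block, against 129, 132, 112 and 75 without it. In mock at 24 h against 0 h 26 were higher and 61 lower with it, against 26 and 62 without it, and 0 of the 8 counts changed by more than 1.5 times. Low counts limit 19 of the 150 genes, which had under 30 counts over the mock libraries at 12 h.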
